A study of Arabidopsis thaliana with 24 samples.

Results

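AT1G16850, AT1G51090 and AT1G73480 are 3 protein-coding genes of Arabidopsis thaliana whose transcripts rose steeply within hours of cooling and whose role is unclear. They were chosen by their measured log2 signals at the 6 h harvest, as steep rises with cooling, and each is read by a probe set that lists a single gene. They are 3 of 13356 genes that are named on such probe sets. All 3 lie on chromosome 1, and the TAIR10.1 gene table of RefSeq lists 1 transcript and 1 protein for each. It gives none of them a name beyond the locus code, so no function is assigned to them here. Because the 6 h slopes chose the genes, all their values from the 6 h plants are given as a description, with no test. The 3 genes are tested on the 78 h plants. Genes beside them on the chromosome were also tested at 6 h.

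The plants were Col-0 rosettes, grown on soil at 20 °C with 12 h of light a day and 4 weeks old when moved. They were placed at 20 °C as the control or at 17, 14, 12, 10 or 8 °C, 4 h into the light, and frozen 6 h or 78 h later, both times 10 h into the light. All groups share the accession, the soil, the light and the tissue, and the control plants were moved too, at an unchanged temperature. Each of the 12 combinations of temperature and harvest had 2 one-colour arrays, marked A and B in the labels, and each sample pooled 3 rosettes. Such pooled tissue cannot tell fewer cells of a type from less RNA per cell. The labels name no separate experiments for A and B, so the p-values measure the spread between these samples, and 2 arrays a group limit the precision.

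Plants that are cooled without freezing start a programme known as cold acclimation. Transcription factors of the CBF family are made soon after the cold begins and switch on COR genes, dehydrins and other genes whose products protect membranes and proteins. Repressors such as the zinc finger protein STZ, also called ZAT10, rise beside them. Part of this early response fades while the plant stays cold, and part of it is held. Many genes of the programme have never been given a function, and they are known by their locus codes.

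The arrays carried 22746 plant probe sets, with deposited log2 signals of 3.87 to 14.81, and the median of an array was 7.15 to 7.25. The differences between A and B of 1 group correlated with those of every other group across probe sets, at 0.52 to 0.89 over 66 pairs of groups. The letter was therefore used as a pairing in a second fit, as a block, and in the permutation test. The main fit left it out, so its SE and intervals also hold the difference between letters. Results with the block are given where they alter a call. The 5 leaf markers used to check the tissue, among them LHCB4.1 of the light-harvesting antenna, were bright on every array, with array means between 13.46 and 13.94. The root markers PYK10, EXPA7 and EXPA18, averaged together, had array means between 6.24 and 7.19. Taken singly, their means over all arrays were 9.20 for PYK10, above the array medians, 5.97 for EXPA7 and 5.56 for EXPA18. The flower and seed markers were not analysed here. At 78 h the root marker mean was 6.24 to 6.54 at 8 °C, against 6.83 to 7.19 at 20 °C. Its members changed by -1.54 (PYK10), 0.13 (EXPA7) and -0.07 (EXPA18) log2 per 10 °C of cooling, so the mean does not describe them as a set. The leaf marker mean was 13.46 to 13.62 at 8 °C, against 13.87 to 13.92 at 20 °C. With cooling at 78 h, limma called all 5 leaf markers and 1 of the 3 root markers, PYK10, as falling, where 6.78% of all probe sets were called as falling, while the 3 genes described here had positive slopes. The part of the markers in the slopes of the 3 genes was not tested.

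The first question was whether the genes still followed temperature 78 h after the move, in plants that the rule of choice did not name. The genes were chosen with earlier results of these data known, so these plants are not shown to be independent of the choice. AT1G16850 still followed temperature. Its A and B arrays read 8.95 and 8.09 at 20 °C, 9.65 and 8.50 at 17 °C, 9.57 and 9.13 at 14 °C, 10.33 and 9.47 at 12 °C, 10.46 and 9.96 at 10 °C, and 10.84 and 10.21 at 8 °C, in log2 signal. Both arrays of each of the 4 coldest temperatures lay above both arrays at 20 °C, and the 17 °C arrays overlapped them. The group mean was 10.53 ± 0.45 at 8 °C, against 8.52 ± 0.61 at 20 °C (SD, n = 2 each). The slope was 1.67 ± 0.31 log2 per 10 °C of cooling, or 3.19-fold (SE over the spread of all 24 arrays; limma adjusted p = 0.00263; 95% interval 1.0 to 2.34). It was the only 1 of the 3 called as rising at 78 h in the main fit, where 5.31% of all probe sets were called as rising.

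AT1G73480 was not called as rising at 78 h in the main fit, and it was called once the letters were paired. The A and B arrays read 9.20 and 8.23 at 20 °C, 9.18 and 8.44 at 17 °C, 9.27 and 8.71 at 14 °C, 9.24 and 8.85 at 12 °C, 9.77 and 9.41 at 10 °C, and 10.41 and 9.87 at 8 °C. The readings at 20, 17, 14 and 12 °C overlapped, and both arrays at 10 and at 8 °C lay above both at 20 °C. The mean was 10.14 ± 0.38 at 8 °C, against 8.71 ± 0.68 at 20 °C (SD, n = 2 each). The slope was 1.09 ± 0.41 log2 per 10 °C (95% interval 0.22 to 1.97; limma adjusted p = 0.107). With the letter as a replicate block its SE was 0.17 and its limma adjusted p was 0.000218. Pairing was not needed for a call. Without the block the slope was also called from the 78 h arrays alone (SE 0.27, limma adjusted p = 0.0277) and as a straight line (0.0113).

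AT1G51090 had the flattest 78 h profile of the 3. The A and B arrays read 9.46 and 8.17 at 20 °C, 9.71 and 8.65 at 17 °C, 9.59 and 8.70 at 14 °C, 9.71 and 8.68 at 12 °C, 9.94 and 9.13 at 10 °C, and 10.11 and 9.49 at 8 °C. Only the 8 °C arrays lay wholly above the 20 °C arrays, by a margin of a few hundredths. The mean was 9.80 ± 0.43 at 8 °C, against 8.81 ± 0.91 at 20 °C (SD, n = 2 each). The slope was 0.71 ± 0.45 log2 per 10 °C (95% interval -0.26 to 1.68; limma adjusted p = 0.398). With the replicate block the SE was 0.14 and the limma adjusted p was 0.00119. All 3 genes were then called as rising, where 14.4% of all probe sets were.

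**Figure D1:**
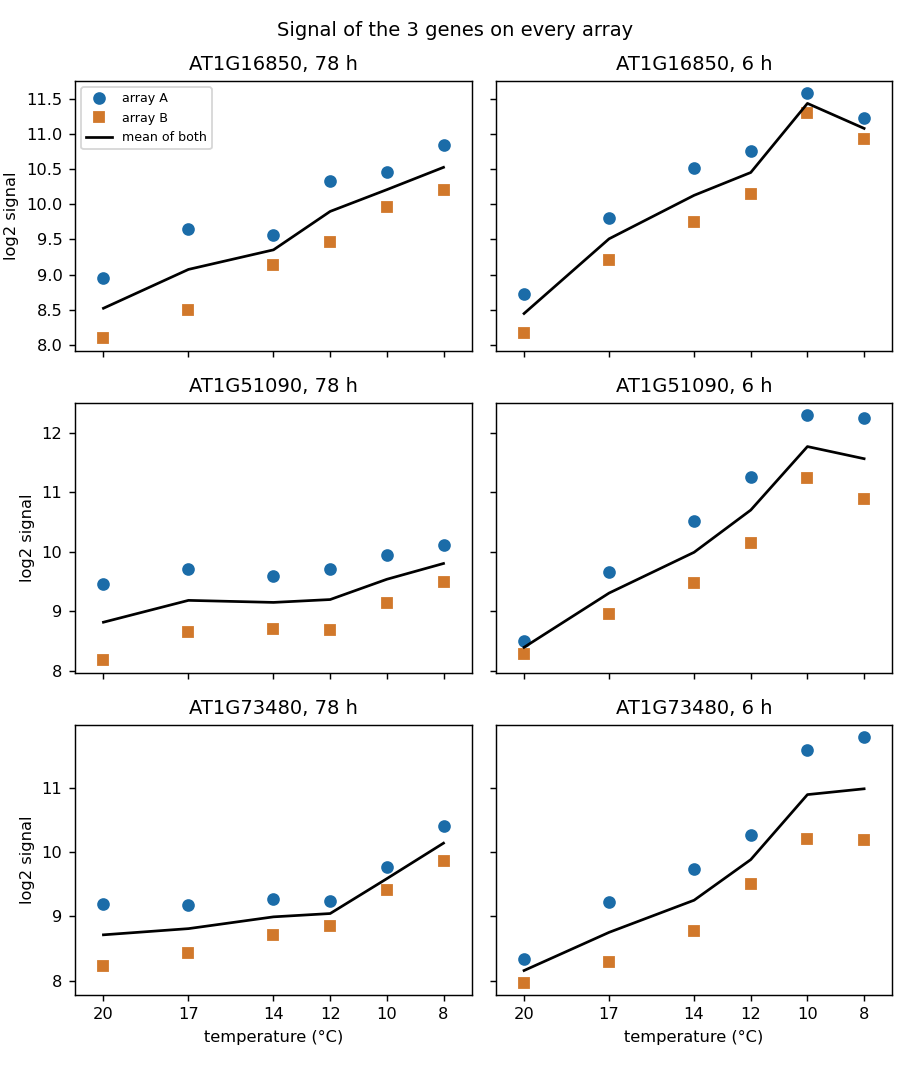
The log2 signal of each gene is plotted against temperature, from 20 to 8 °C, with the 78 h harvest on the left and the 6 h harvest on the right. Circles are A arrays, squares are B arrays and the line joins the means of both; A lies above B in every group, and the 78 h lines climb less than the 6 h lines.

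Each temperature was also set against 20 °C at 78 h. The 5 comparisons share the control arrays. At 8 °C AT1G16850 was higher by 2.00 ± 0.44 log2, or 4.01-fold (limma adjusted p = 0.0115), and it was the 1 gene of the 3 called there, where 2.92% of all probe sets were called as higher. At 10 °C it was higher by 1.69 ± 0.44 (adjusted p = 0.0444), again the 1 called, where 2.04% were. The 8 °C call was lost without the A array of 8 °C (adjusted p = 0.133) or the B array of 20 °C at 78 h (adjusted p = 0.121). The 10 °C call was lost in 16 of the 24 omissions of 1 array, those of every array but the 12 and 17 °C arrays of 78 h and the 12 and 14 °C arrays of 6 h, with limma adjusted p up to 0.298. With the replicate block all 3 genes were called at both temperatures, where 10.3% of all probe sets were called as higher at 8 °C and 8.95% at 10 °C.

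AT1G73480 differed from 20 °C by 1.42 ± 0.58 at 8 °C (limma adjusted p = 0.18, and 0.00068 with the block) and by 0.87 ± 0.58 at 10 °C (adjusted p = 0.567, and 0.0234 with the block). AT1G51090 differed by 0.99 ± 0.64 at 8 °C (adjusted p = 0.476, and 0.00193 with the block) and by 0.72 ± 0.64 at 10 °C (adjusted p = 0.723, and 0.0197 with the block). With 1 array left out and the block kept, the 10 °C call of each of these genes held in 21 of 24 omissions and the 8 °C call in all 24, an alternative chosen after seeing the data. At 10 °C AT1G73480 lost it without either array of 20 °C or the B array of 10 °C (limma adjusted p up to 0.202), and AT1G51090 without either array of 10 °C or the B array of 20 °C (up to 0.193). AT1G16850 was also called at milder temperatures with the block. At 12 °C it differed from 20 °C by 1.38 ± 0.44 (adjusted p = 0.233, and 0.000192 with the block) and at 14 °C by 0.83 ± 0.44 (adjusted p = 1, and 0.0224 with the block). Without the block limma called 0 of the 3 genes at 12 °C, where 0.369% of all probe sets were called as higher, 0 at 14 °C, where 0.0132% were, and 0 at 17 °C, where 0% were. At an unadjusted p under 0.05 the numbers were 1, 0 and 0. Of all 22746 probe sets 1792, 958 and 458 had such a p, in either direction. With the block 1 of the 3, AT1G16850, was called at 12 °C, where 2.55% were, and at 14 °C, where 0.462% were. At 17 °C 0 were called, where 0.0044% were. There 1 of the 3, AT1G16850, had an unadjusted p under 0.05. The share of all probe sets at that unadjusted threshold was not counted with the block.

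No single step between neighbouring temperatures at 78 h passed the adjusted test. In the order of the levels, the group means of AT1G16850 and AT1G73480 were higher at each colder temperature, and AT1G51090 was slightly lower at 14 °C than at 17 °C. The largest steps were 0.55 ± 0.44 for AT1G16850 (17 against 20 °C), 0.55 ± 0.58 for AT1G73480 (8 against 10 °C) and 0.37 ± 0.64 for AT1G51090 (17 against 20 °C). Of the 15 steps limma called 0, with or without the block. Without the block 0 had an unadjusted p under 0.05, where 105 to 758 of all 22746 probe sets had one in a given step. With the block 4 had. Those of AT1G16850 were to 17 °C (SE 0.16, limma unadjusted p = 0.00332, adjusted p = 0.377) and to 12 °C (0.55, SE 0.16, 0.00358, adjusted p = 0.674). Those of AT1G73480 were to 10 °C (0.54, SE 0.24, 0.043, adjusted p = 0.464) and to 8 °C (SE 0.24, 0.0398, adjusted p = 0.996). Over all probe sets 0% were called in any of the 5 steps without the block, and with it 0.0132% in the step to 17 °C, 0.0396% in the step to 10 °C and 0% in the others. Without the block, then, neighbouring levels were not told apart beyond their spread. With the block those 4 steps did not pass the threshold adjusted over all probe sets. How many of all probe sets had an unadjusted p under 0.05 with the block was not counted, so no conclusion is drawn from the 4. The curvature was called for 0 of the 3 genes by limma in either fit, where 0.0132% of all probe sets were called, and 1.09% with the block. At an unadjusted p under 0.05 there were 0 without the block, where 1241 of all 22746 probe sets had one. With the block there was 1, AT1G73480 (1.40 ± 0.49, limma unadjusted p = 0.012, adjusted p = 0.187), and the number over all probe sets was not counted.

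The 3 genes differed from one another in how steep they were at 78 h. AT1G16850 was steeper than AT1G51090 by 0.96 log2 per 10 °C (1.04 on A and 0.89 on B). The exact two-sided permutation test, with temperatures permuted within each letter, gave p = 0.000143, adjusted over the 3 pairs to 0.000428. AT1G16850 was steeper than AT1G73480 by 0.58 (0.63 in A and 0.53 in B; exact permutation p = 0.019, adjusted p = 0.0228). The difference of AT1G51090 minus AT1G73480 was -0.38 (-0.41 in A and -0.36 in B; exact permutation p = 0.0228, adjusted p = 0.0228). The second difference lost its call without the A or the B array of 20 °C, with adjusted exact p of 0.101 and 0.075. The third lost it without the A array of 17 °C or either array of 8 °C, with adjusted exact p up to 0.0854, and it was -0.25 without the A array of 8 °C. It also lost it when temperatures were permuted over all 12 arrays without regard to letter (adjusted permutation p = 0.0759).

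At 6 h, the harvest that chose the genes, the same order of temperatures spanned a wider range. AT1G16850 read 8.72 and 8.17 in A and B at 20 °C, 9.80 and 9.21 at 17 °C, 10.51 and 9.74 at 14 °C, 10.76 and 10.14 at 12 °C, 11.58 and 11.29 at 10 °C, and 11.23 and 10.93 at 8 °C. Both arrays of every cooler temperature lay above both at 20 °C, and 10 °C was the highest group on both letters. Its slope was 2.35 ± 0.31 log2 per 10 °C. At 17 °C, a drop of 3 °C, it was already higher than at 20 °C by 1.06 ± 0.44, or 2.09-fold, which was 40.4% of its difference at 8 °C on the log2 scale.

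AT1G51090 read 8.50 and 8.28 at 20 °C, 9.66 and 8.95 at 17 °C, 10.51 and 9.46 at 14 °C, 11.25 and 10.15 at 12 °C, 12.29 and 11.24 at 10 °C, and 12.24 and 10.88 at 8 °C. All cooler arrays again lay above the 20 °C arrays, and the 10 °C reading was above the 8 °C reading on both letters. The slope was 2.89 ± 0.45, and the difference from 20 °C was 3.38 ± 0.64 at 10 °C and 3.17 ± 0.64 at 8 °C. AT1G73480 read 8.35 and 7.97 at 20 °C, 9.22 and 8.29 at 17 °C, 9.73 and 8.77 at 14 °C, 10.26 and 9.50 at 12 °C, 11.58 and 10.20 at 10 °C, and 11.78 and 10.18 at 8 °C. Here the 17 °C arrays overlapped the 20 °C arrays, and 8 °C was above 10 °C on the A arrays but slightly below it on the B arrays. The slope was 2.52 ± 0.41.

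By size of the 6 h slope the genes stood at places 2 (AT1G51090), 6 (AT1G73480) and 9 (AT1G16850) of the 13513 single-gene probe sets, where 4.9% of all probe sets were called as rising. The dehydrin LTI30 stood at place 1 with 3.81, COR47 at place 8 with 2.44 and AT4G36010 at place 10 with 2.32. The choice had no fixed threshold. By the 78 h slope AT1G16850 stood at place 10, AT1G73480 at place 32 and AT1G51090 at place 129 of the same 13513. The order of the 3 genes was therefore not the same at the harvests: AT1G51090 was the steepest at 6 h and the least steep at 78 h, and AT1G16850 the reverse. This exchange held on the A arrays, while on the B arrays AT1G16850 and AT1G51090 had equal slopes of 2.47 at 6 h and AT1G73480 was the least steep, with 2.08.

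**Figure D2:**
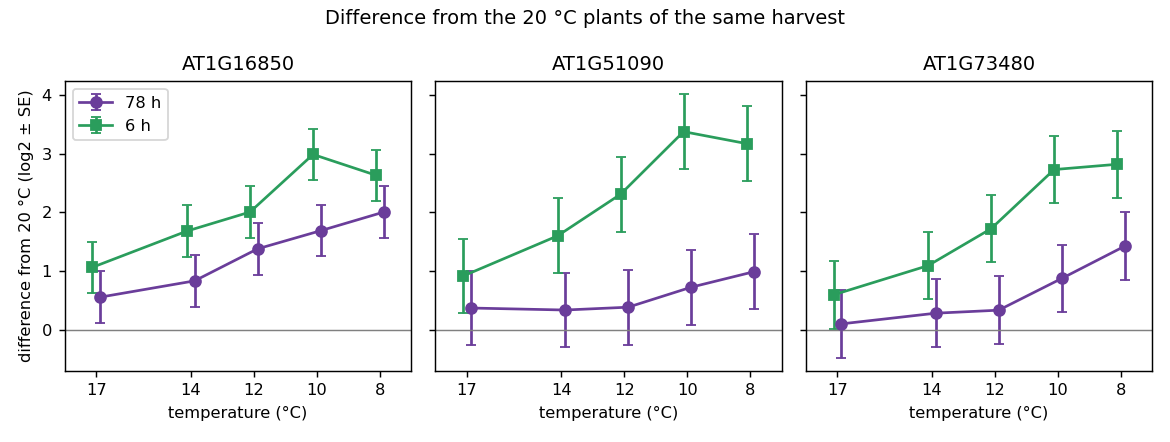
The difference of each cooler group from the 20 °C plants of the same harvest is plotted against temperature in log2 units, with SE bars from the limma fit (circles 78 h, squares 6 h). At 8 °C the difference was 2.00 at 78 h and 2.63 at 6 h for AT1G16850, and 0.99 at 78 h and 3.17 at 6 h for AT1G51090.

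Set against 6 h, the levels at 78 h were lower in the cold and similar or higher in the warmth. At 10 °C the 78 h mean minus the 6 h mean was -1.23 ± 0.44 log2 for AT1G16850, -2.23 ± 0.64 for AT1G51090 and -1.30 ± 0.58 for AT1G73480. At 8 °C the same differences were -0.55 ± 0.44, -1.76 ± 0.64 and -0.84 ± 0.58. At 20 °C the 78 h mean was above the 6 h mean by 0.07 ± 0.44 in AT1G16850, 0.42 ± 0.64 in AT1G51090 and 0.55 ± 0.58 in AT1G73480. A choice of genes by steep 6 h rises favours low readings at 20 °C and high readings in the cold at 6 h, so these differences are a description. The 78 h slope amounted to 71.2% of the 6 h slope for AT1G16850, 43.5% for AT1G73480 and 24.6% for AT1G51090.

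The level of all 3 genes differed by letter. The A array was above the B array in 6 of 6 temperatures at each harvest for each gene, on average by 0.74 at 78 h and 0.52 at 6 h for AT1G16850, by 0.95 at 78 h and 0.92 at 6 h for AT1G51090, and by 0.59 at 78 h and 1.0 at 6 h for AT1G73480. The slopes of the letters differed less in AT1G16850 than in the others at 6 h. In AT1G16850 the slope was 1.51 in A and 1.84 in B at 78 h, and 2.23 in A and 2.47 in B at 6 h. In AT1G51090 it was 0.47 in A and 0.95 in B at 78 h, and 3.31 in A and 2.47 in B at 6 h. In AT1G73480 it was 0.88 in A and 1.31 in B at 78 h, and 2.95 in A and 2.08 in B at 6 h. A was thus shallower than B at 78 h in all 3 genes, and steeper than B at 6 h in AT1G51090 and AT1G73480. The share of the 6 h slope found at 78 h was 14.3% in A and 38.5% in B for AT1G51090, 29.8% in A and 62.9% in B for AT1G73480, and 67.7% in A and 74.3% in B for AT1G16850. With 1 array per letter, temperature and harvest these differences between letters were not tested.

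**Figure D3:**
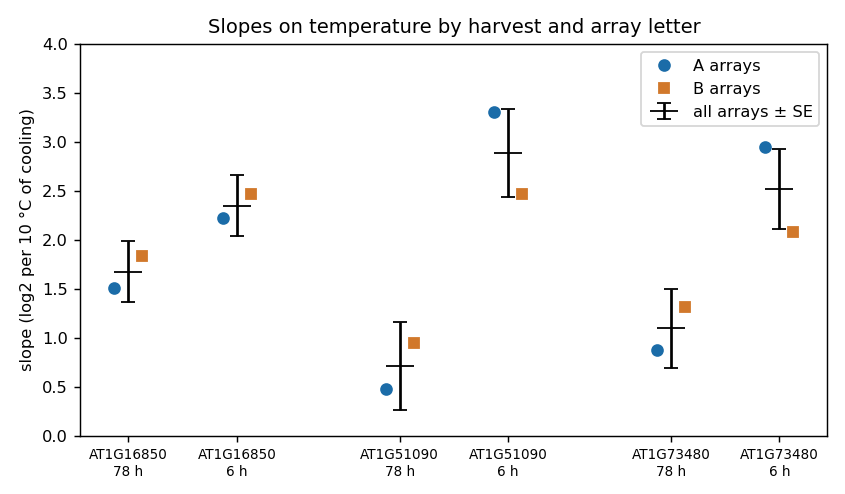
The slope on temperature, in log2 per 10 °C of cooling, is shown for each gene at 78 h and at 6 h. Bars are the estimates over both letters with their SE, circles the A arrays and squares the B arrays; every 78 h slope lies below the 6 h slope of the same gene on the same letter.

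The profiles of the 3 genes over the 12 group means resembled each other, with Pearson correlations of 0.92 (AT1G16850 and AT1G51090), 0.94 (AT1G16850 and AT1G73480) and 0.94 (AT1G51090 and AT1G73480). These rest on 12 points that share arrays and on genes chosen for the same 6 h rise. Even so the 3 were not each other's nearest matches. Among single-gene probe sets AT1G73480 came at place 66 in likeness to AT1G16850, and the other pairings came at places between 81 and 167.

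The genes most like AT1G16850 were SAT32, named for salt tolerance in the gene table, AT4G33905, AT3G54400, AT1G73400 and AT3G57020, with correlations of 0.982 to 0.994 over the 12 group means. Their slopes were positive at both harvests. SAT32 had slopes of 1.10 at 78 h and 1.55 at 6 h, and AT3G57020 had 1.33 at 78 h and 1.72 at 6 h. The genes most like AT1G51090 were AT1G76580, AT1G64890, AT1G32860, AT3G60980 and SERPIN1, a protease inhibitor of the serpin family, at 0.986 to 0.996. Their slopes were lower at 78 h than at 6 h, with 0.36 at 78 h and 1.51 at 6 h in AT1G76580, and 0.26 at 78 h and 1.24 at 6 h in SERPIN1. AT1G32860, itself among the steepest at 6 h, had 1.05 at 78 h and 2.82 at 6 h. The genes most like AT1G73480 were AT1G27200, AT1G33230, AT1G49560, AT1G75370 and AT1G78070, at 0.985 to 0.993. AT1G27200 had slopes of 1.03 at 78 h and 2.09 at 6 h, and AT1G75370 had 0.54 at 78 h and 1.12 at 6 h. All 15 had positive slopes at both harvests and a lower slope at 78 h than at 6 h. They were selected for the shape of their profile, so their slopes are a description.

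**Figure D4:**
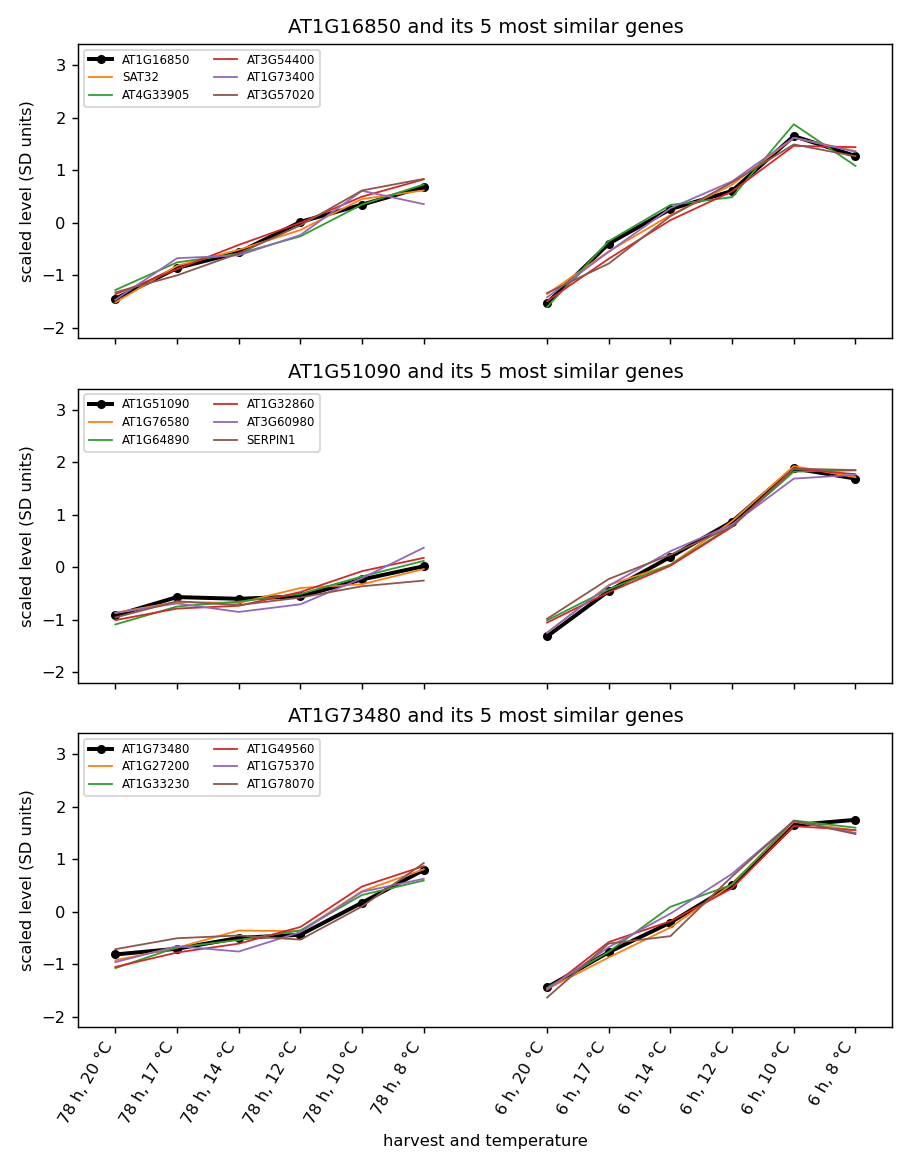
Group means of each gene (black) and of its 5 most similar single-gene probe sets (coloured) are plotted for the 78 h temperatures on the left and the 6 h temperatures on the right, each gene scaled to mean 0 and SD 1 over its 12 group means. All sets climb at both harvests. From 20 to 8 °C at 78 h AT1G16850 goes from -1.45 to 0.68, and AT1G51090 from -0.92 to 0.02.

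Of a list of 26 genes of the cold response, written out by locus code, 5 had a single-gene probe set that could be used. They were the dehydrins LTI30 and COR47, the chloroplast proteins COR15A and COR15B, and the repressor STZ. At 78 h LTI30 (2.77 ± 0.36 log2 per 10 °C), COR15B (0.77 ± 0.14) and COR15A (0.73 ± 0.09) were called as rising by limma, 3 of 5. COR47 (0.63 ± 0.53, limma adjusted p = 0.564) was not called in that fit, and it joined them with the block (limma adjusted p = 0.00288). Over all probe sets 5.31% were called as rising, and 14.4% with the block. STZ had a slope of 0.04 ± 0.45. The list's median was 0.73 at 78 h, and that over all probe sets was 0.02. The 78 h slopes of the 3 genes, between 0.71 and 1.67, lay within the wide range of the 5 measured genes, 0.04 to 2.77. Their closest members of the list in profile were COR47, with a correlation of up to 0.98 with 1 of the 3 genes over the 12 group means, and LTI30, also with up to 0.98. COR15A, with up to 0.88, was the least alike. Each value is the highest over the 3 genes. The 12 means include those of 6 h, the harvest that chose the 3 genes. COR47 and LTI30 also had steep slopes there, 2.44 and 3.81, so these correlations are a description.

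The genes beside the 3 on the chromosome were also read. The 2 protein-coding genes on each side of every gene, taken by position in the gene table, made 12, of which 10 were measured on 11 probe sets. Their slopes at 78 h lay between -0.45 (AT1G73470) and 0.26 (AT1G16830), with a median of -0.10. Limma called 0 of the 11, where 5.31% of all probe sets were called as rising and 6.78% as falling. An unadjusted p under 0.05 was found for 2, AT1G73470 and 1 of the 2 probe sets of AT1G51110, both with negative slopes. The share of all probe sets at that unadjusted threshold was not counted. With the block 3 were called as rising, AT1G16830, AT1G16870 (0.17) and AT1G73490 (0.21), and 4 as falling, where 14.4% of all probe sets were called as rising and 15.1% as falling. At 6 h AT1G16840, next to AT1G16850, rose by 0.62 ± 0.18 (limma adjusted p = 0.041), and it was the 1 neighbour called as rising, where 4.9% of all probe sets were. Its slope at 78 h was -0.10 ± 0.18. With the block at 6 h, AT1G16860, on the other side of AT1G16850 (0.68, limma adjusted p = 3.54e-05), and AT1G16830 (0.31, 0.0162) were called as rising too, where 12.2% of all probe sets were, and AT1G16870 (-0.21, 0.0092) as falling, where 14.7% were.

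A further list of 15 locus codes was drawn up as presumed relatives of AT1G73480. The gene table used here does not annotate them as a family, so no shared role is stated. At 78 h 1 of the 14 measured was called as rising, AT1G18360 (0.44 ± 0.09, limma adjusted p = 0.00687), and 1 as falling, AT3G62860 (-0.40 ± 0.08), where 5.31% of all probe sets were called as rising and 6.78% as falling. AT2G39420 (-0.80 ± 0.64) and AT1G77420 (-0.55 ± 0.19) had the largest slopes in size and were not called, and AT1G77420 was called as falling with the block (limma adjusted p = 0.0308). The median was -0.05, against 0.02 over all probe sets. AT1G73480, at 1.09, had a higher slope than any of the 14. Their mean log2 signals ran from 4.73 to 10.17, against 9.43 for AT1G73480, and the dimmest lay near the lowest signals of the arrays.

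**Figure D5:**
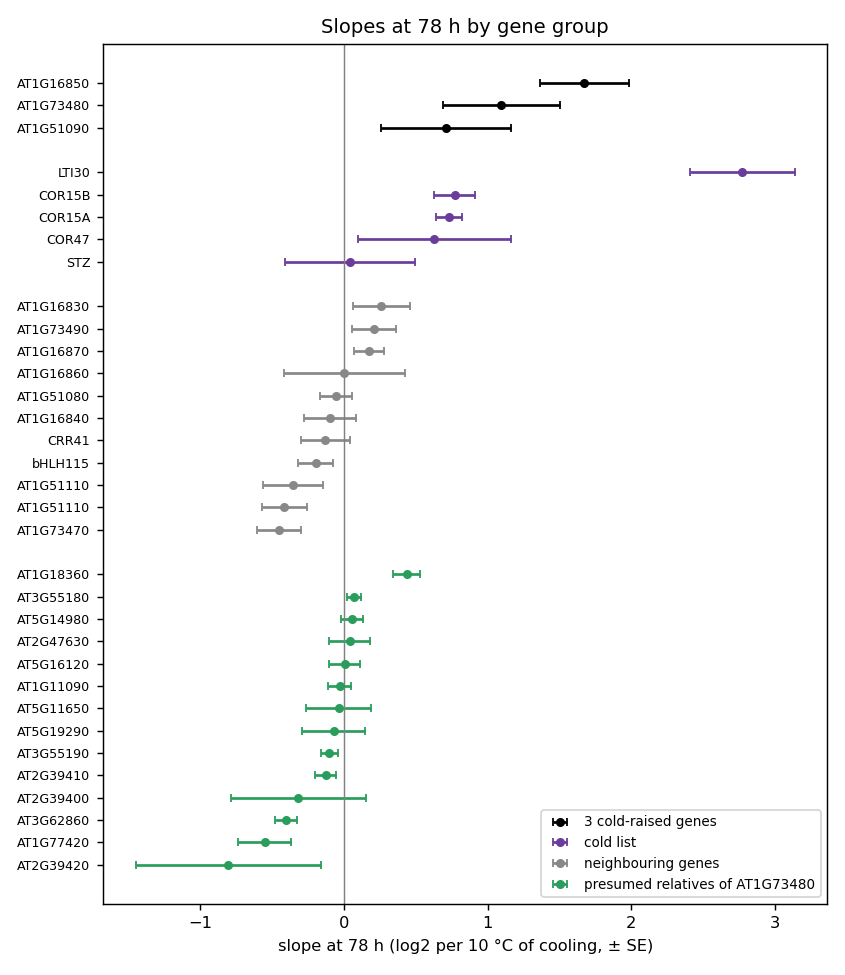
Slopes at 78 h, in log2 per 10 °C of cooling with SE bars, are shown for the 3 genes (black), the measured genes of the cold list (purple), the neighbouring genes (grey) and the presumed relatives of AT1G73480 (green). The 3 genes sit between 0.71 and 1.67, inside the wide span of the measured cold list (0.04 to 2.77), and above all neighbours and presumed relatives.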

How the data were processed

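RNA of rosettes was read on 24 one-colour oligonucleotide arrays from biotin-labelled cRNA, per the labels' protocols. The deposited signals look like log2 values from their range, although no source names the base. The authors had already brought the arrays to a common distribution: no sorted array departed from the mean one by more than 0.116. How this was done is not given here. The 64 control probe sets were left out.

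One mean for each of 12 groups was fitted with limma 3.58.1 in R 4.3.3 to 22746 probe sets (12 residual degrees of freedom, 11 with the letter as a block). A slope is the linear contrast of the 6 temperature means of a harvest. A result was called when its adjusted p (Benjamini-Hochberg, every plant probe set) was under 0.05. The letter was left out of the main fit. It was used in the block and in the permutations because the A minus B differences of all 66 pairs of groups correlated, with a median of 0.669. Differences in slope between genes at 78 h were tested over all 518400 permutations within letters.

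The text names the 3 genes, the 5 single-gene probe sets most correlated with each over the group means, and list members: all of a short list, and of the presumed relatives the 4 with the largest slopes in size at 78 h. Neighbours were added afterwards and named by their values. Members and lists were chosen with earlier results of these data known. Lists by shared description and promoter motifs were not analysed here. The fit without the block was tested on simulated data that held no difference between letters.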

Additional observations from a re-analysis of the deposited data

How the results depend on the processing

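Alternatives were the replicate block, arrays centred on their medians, cyclic loess, a filter that dropped the dimmest 25% of probe sets, eBayes with trend and robust estimation, array weights, the 78 h arrays alone, a straight line, each letter alone, and omission of each array. The slope of AT1G16850 at 78 h was called in 10 of 10 settings and 24 of 24 omissions (1.39 without the B array of 20 °C to 1.95 without the A array). With the replicate block and omissions, added after seeing the data, all 3 slopes were called in 24 of 24. Array scaling moved the median slope of all probe sets little (0.050 centred, 0.0040 with loess). Where a call changed, the cause was not tested. In a fit without 1 array, the group left with 1 array carries the difference between letters by construction, and its lone array is assumed to vary like the other groups.

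The replicate block brought calls for the slopes of AT1G51090 (0.71) and AT1G73480 (1.09), for AT1G16850 at 14 °C (0.83) and 12 °C (1.38), and for AT1G51090 and AT1G73480 at 10 °C (0.72 and 0.87) and 8 °C (0.99 and 1.42). It changed no call among the steps or the curvatures. The slope of AT1G73480 was also called with the 78 h arrays alone (1.09, limma adjusted p = 0.0277), as a straight line (1.09, 0.0113), on A alone (0.88) and on B alone (1.31), and that of AT1G51090 on B alone (0.95). The 10 °C call of AT1G16850 was lost with cyclic loess (1.66, limma adjusted p = 0.0554), array weights (1.69, 0.0589) and the 78 h arrays alone (1.69, 0.0835). Probe sets called as rising at 78 h numbered 3279 with the block, 1912 as a straight line and 2117 on A alone, beside 1208. Those higher at 10 °C numbered 2036 with the block, beside 465, and at 8 °C 2346 with the block and 1114 with array weights, beside 664. The difference AT1G51090 minus AT1G73480 (-0.38) lost its call without the block.

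Omitting 1 array gave these ranges at 78 h. The slope was 0.29 to 1.13 for AT1G51090 and 0.78 to 1.41 for AT1G73480. The difference from 20 °C of AT1G16850 was -0.019 to 1.12 at 17 °C, 0.40 to 1.26 at 14 °C, 0.94 to 1.81 at 12 °C, 1.26 to 2.12 at 10 °C and 1.58 to 2.43 at 8 °C. That of AT1G51090 was -0.28 to 1.01 at 17 °C, -0.31 to 0.98 at 14 °C, -0.26 to 1.02 at 12 °C, 0.079 to 1.37 at 10 °C and 0.34 to 1.63 at 8 °C. That of AT1G73480 was -0.39 to 0.58 at 17 °C, -0.20 to 0.76 at 14 °C, -0.15 to 0.81 at 12 °C, 0.39 to 1.35 at 10 °C and 0.94 to 1.90 at 8 °C. Steps turned sign in 19 of 360 omissions and curvatures in 9 of 72, and in 0 of 105 and 0 of 21 other settings. The steps of AT1G16850 ranged from -0.29 to 0.85 (to 14 °C) and -0.12 to 0.74 (to 10 °C). Those of AT1G51090 ranged from -0.56 to 0.49 (to 14 °C), -0.47 to 0.57 (to 12 °C), -0.18 to 0.86 (to 10 °C) and -0.14 to 0.67 (to 8 °C). Those of AT1G73480 ranged from -0.19 to 0.56 (to 14 °C) and -0.23 to 0.33 (to 12 °C). The curvature ranged from -0.49 to 0.80 for AT1G16850 and -0.54 to 1.40 for AT1G51090. Probe sets called as rising numbered 668 to 1234, with 668 without the A array of 20 °C, 760 without the B array of 20 °C and 770 without the A array of 8 °C. Those higher at 10 °C numbered 202 to 495 and at 8 °C 270 to 709, lowest without an array of 20 °C or of the temperature compared. The slope of AT1G73480 at 6 h was 2.07 to 2.96. The difference AT1G16850 minus AT1G73480 was 0.41 to 0.72, and AT1G51090 minus AT1G73480 was -0.50 to -0.25. With 2 arrays a group, precision is limited by their number.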
